A study of Mus musculus with 6 samples.

Results

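The genes of purine, pyrimidine and deoxynucleotide metabolism were examined in methotrexate-selected breast cancer cells. The list held 46 genes chosen by function, with earlier results of these data known. Of them, 45 had a probe set that the array annotation paired with their symbol alone, among 19933 genes measured in all. Impdh2 was not analysed here. Of the 45 genes, 18 belong to de novo synthesis (13 purine, 5 pyrimidine), 14 to salvage, breakdown and transport, and 13 to the supply of deoxynucleotides (dNTPs) for DNA. Total RNA of cultured 4T1 cells, which derive from a mammary tumour of a BALB/c mouse, was hybridised to 6 single-colour Affymetrix arrays. There were 3 arrays of MR13, the 4T1 cells that outlived methotrexate (MTX), and 3 arrays of WTR-, the untreated 4T1 cells. The sample labels give MTX at 13 µg/ml for up to 2 weeks, whereas the study's text states a molar dose and a longer exposure. MR13 is 1 selected line that the study grew on in drug-free medium, whether MTX was present at extraction was not stated, and the labels speak of triplicate wells. P values here cover only differences among wells of 1 selected line, and not among separate selections.

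Purine rings are built step by step on phosphoribosyl pyrophosphate (PRPP) to give IMP, the common precursor of AMP and GMP. Pyrimidine rings are built first and then joined to PRPP to give UMP. Salvage enzymes recycle ready-made bases and nucleosides at less cost, and ribonucleotide reductase makes the deoxynucleotides from which DNA is copied. MTX blocks dihydrofolate reductase and so starves thymidylate synthase and both folate-dependent steps of purine synthesis of their cofactors, which is why these pathways are its classical site of action.

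MR13 cells differed from WTR- cells in most of these genes, by small amounts and in both directions. Of the 45 genes, 12 were higher and 20 lower in MR13 at an adjusted p under 0.05 by limma, adjusted over all genes, and 13 did not pass. The share called was 71.1%, against a background of 37.6% of all genes tested (17.0% higher, 20.6% lower). Most of these genes gave a strong signal, and 44 of them lay above the median level of all genes. Among all genes above that median 62.2% were called (27.3% higher, 35.0% lower), against 70.5% of the 44 (25.0% higher, 45.5% lower), so the share called exceeded that of such genes by less than that of all genes. The median difference, MR13 minus WTR-, was -0.12 on the log2 scale for the 45 genes and 0.01 for all genes. Only Xdh differed by 1 or more on the log2 scale, a 2-fold change, and 12 of the 45 genes were called with a difference of at least 0.5, against 14.3% of all genes tested. A bulk array cannot tell fewer cells that use a gene from less RNA per cell.

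**Figure D1:**
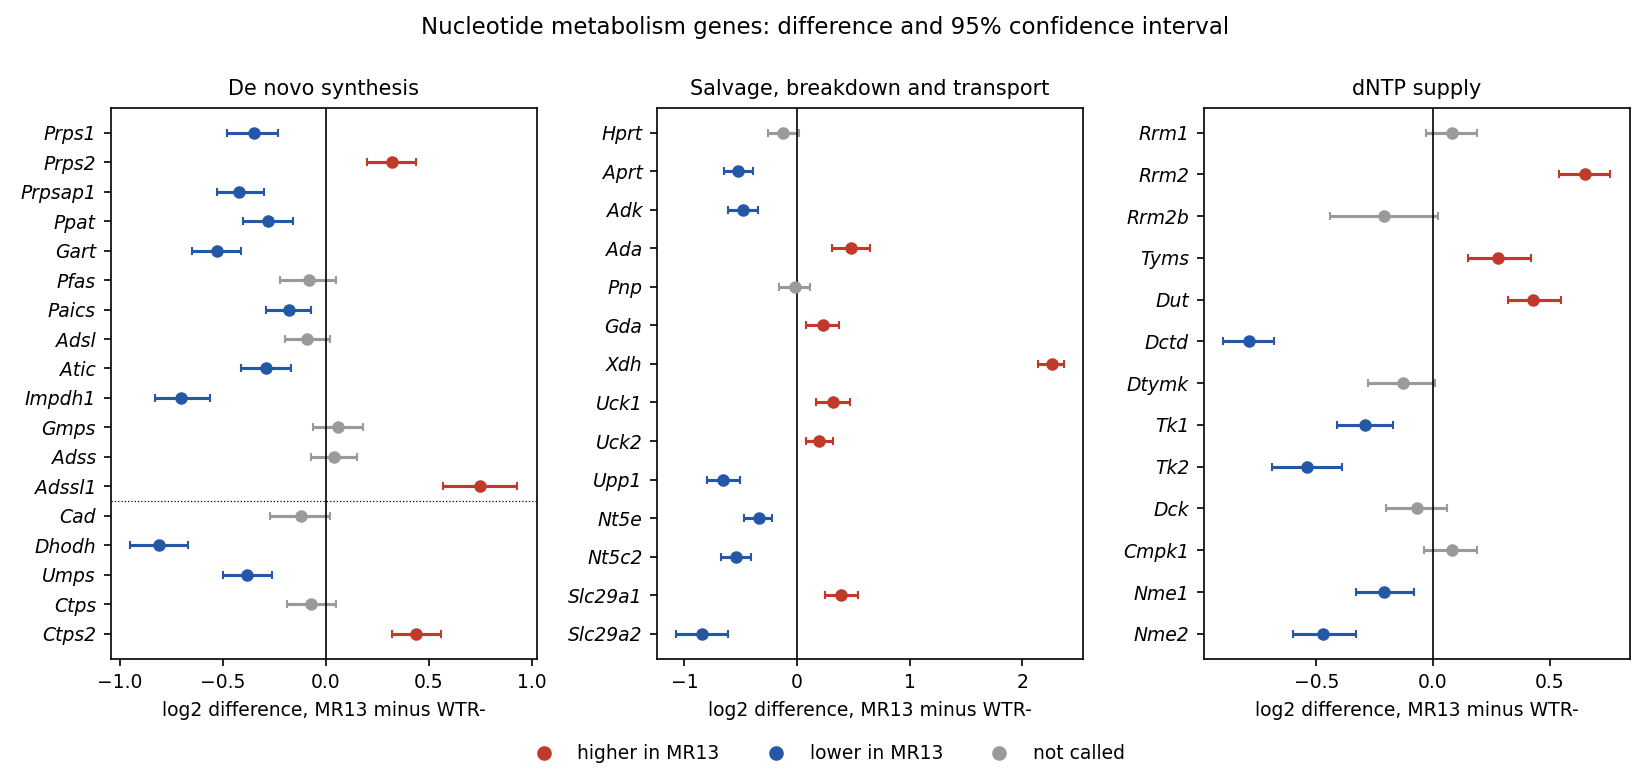
Log2 difference (MR13 minus WTR-, x axis, scaled separately in each panel) of the 45 measured genes, with 95% confidence intervals from limma. Red and blue mark genes called higher and lower in MR13 and grey marks genes not called, and the dotted line parts purine (above) from pyrimidine genes. Most intervals lie within 1 of zero, and Xdh stands at 2.26.

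Over all probe sets, r was 0.984 to 0.987 for an MR13 array with a WTR- array, and 0.9980 to 0.9987 within a group. No array was a copy of another, since the SD of the difference between arrays of a group was at least 0.133. Of 9 epithelial markers, 8 were lower in MR13, the claudin gene Cldn4 (-5.27) and the keratin gene Krt7 (-4.52) the most, and Krt8 (difference 0.12) did not pass. The log2 of their summed signal lay between 14.26 and 14.38 in MR13 and between 15.29 and 15.35 in WTR-. Of 10 fibroblast markers 3 were higher in MR13 (Pdgfra by 1.82, Dcn by 1.70 and Acta2 by 0.76), with log2 sums of 10.86 to 11.02 in MR13 and 9.82 to 9.96 in WTR-, and of 10 myeloid markers 3 were higher (Ly6g by 1.14, Cd14 by 0.67 and Cd68 by 0.35), with log2 sums of 10.78 to 10.92 in MR13 and 10.33 to 10.43 in WTR-. Among the defining markers that were not called, the leukocyte antigen Ptprc stood at 5.22 in MR13 and 5.17 in WTR-, and the collagen gene Col1a1 at 7.17 and 7.15 in the same order. No lymphocyte or endothelial marker was called by limma, and 1 of 9 (Cd4) and 0 of 8 had an unadjusted p under 0.05. Their log2 sums were 8.48 to 8.56 in MR13 and 8.37 to 8.48 in WTR- for lymphocytes, and 8.34 to 8.48 in MR13 and 8.30 to 8.41 in WTR- for endothelium. The part of these shifts in the nucleotide genes was not tested.

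On the main purine route, transcripts of Ppat, Gart, Paics and Atic were lower in MR13, while Pfas and Adsl were not called. Of all 13 purine genes, 7 fell and 2 rose, with a median difference of -0.18. The shares of 53.8% lower and 15.4% higher compare with 20.6% and 17.0% of all genes tested. Among genes above the median level, 35.0% were lower and 27.3% higher. Gart carries 3 activities of the pathway, one of them folate-dependent. It was at 10.57, 10.64 and 10.66 on the MR13 arrays and at 11.14, 11.16 and 11.16 on the WTR- arrays, in log2 units. All MR13 values were below all WTR- values, and Gart fell by 0.53 (SE 0.05, adjusted p = 4.45e-05), 1.44-fold lower. Ppat, whose product makes the committed step, differed by -0.28 (SE 0.05, adjusted p = 0.00264). Atic, the last enzyme before IMP and the other folate-dependent one, differed by -0.29 (SE 0.05, adjusted p = 0.00209). Paics, an enzyme of the later ring-building steps, stood at 12.96 ± 0.02 in MR13 and 13.13 ± 0.02 in WTR- (SD, n = 3 each). Its difference of -0.18 lost its call after quantile normalization (-0.08, adjusted p = 0.291) and without WTR- replicate 1 (adjusted p = 0.0577), WTR- replicate 2 (0.0586) or MR13 replicate 3 (0.0602). For Pfas (-0.08, 95% confidence interval -0.22 to 0.05) and Adsl (-0.09, -0.20 to 0.02), further enzymes of the route to IMP, no difference was called.

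The entry and exit of the purine route were mixed. The PRPP synthetases went opposite ways. Prps1 was 1.28-fold lower in MR13 (difference -0.35, adjusted p = 8.58e-04) and Prps2 1.25-fold higher (0.32, adjusted p = 0.00122), while Prpsap1, a regulatory partner of these enzymes, fell by 0.42 (SE 0.05). Impdh1, 1 of 2 IMP dehydrogenases on the step from IMP toward GMP, showed the largest fall of the purine synthesis genes measured. The other, Impdh2, was not analysed here, so the step as a whole was not assessed. Impdh1 was at 7.43, 7.60 and 7.56 in MR13 and at 8.25, 8.20 and 8.23 in WTR-. The groups were more than 0.5 apart at their closest, and Impdh1 was 1.62-fold lower (-0.70, SE 0.06, adjusted p = 1.94e-05). Gmps, which completes GMP, differed by 0.06 (95% confidence interval -0.06 to 0.18). On the branch to AMP, Adssl1, the adenylosuccinate synthetase best known from muscle, was at 8.34, 8.57 and 8.54 in MR13 and at 7.77, 7.82 and 7.63 in WTR-. It rose 1.68-fold (0.75, SE 0.08, adjusted p = 7.70e-05). Its widely expressed counterpart Adss differed by 0.04 (95% confidence interval -0.07 to 0.15).

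Short promoter stretches are shown for the genes whose window held an E-box (CACGTG, bound by MYC and MAX) or an E2F site (TTTCCCGC, TTTCGCGC, TTTGCCGC or TTTGGCGC, searched on both strands), since both factor families are known to act on nucleotide genes. The windows were those of RefSeq on GRCm38.p6, a C57BL/6J reference and not the sequence of 4T1 cells, and ran from 250 bases before to 50 after each annotated start. An entry existed for 41 of the 45 genes, and Xdh, Dhodh, Pfas and Rrm2b had none. An E-box was found for 7 of the 41 (17.1%), against 8.09% of 27025 genes with a window and 9.5% of the 15610 of them tested on the arrays. A gene counted if any of its windows held a match, so genes with many windows, such as Nt5c2 (7) and Slc29a1 (8), had more occasions. Of all 32851 windows, 7.15% held an E-box. An E2F match was found for 2 of 41 (4.88%), against 2.6% of all genes with a window and 3.48% of those tested on the arrays. E-boxes lay at 4 of 19 genes that fell, 2 of 11 that rose and 1 of 11 that were not called. Each line gives up to 30 bases in the gene's own direction, cut at the annotated start, with the match in capitals. A match is a string of letters and not a shown binding site.
Atic, chr1:71557137-71557155, plus strand: ggacctcggggtCACGTGg
Paics, chr5:76951087-76951116, plus strand: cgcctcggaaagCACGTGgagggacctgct
Nme1, chr11:93968273-93968302, minus strand: gctgcggggaacCACGTGaggccggggagc
Nt5c2, chr19:46969745-46969774, minus strand: cactttgcttccCACGTGggtactgattaa
Dtymk, chr1:93802065-93802094, minus strand: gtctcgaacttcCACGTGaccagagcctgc
Tyms, chr5:30073669-30073698, minus strand: aaccacttctgtCACGTGggggcggggtct
Slc29a1, chr17:45595304-45595333, minus strand: gagcagcgccagCACGTGgcgcgcatgggc
Ppat, chr5:76951771-76951800, minus strand: gagcagaccgcGCGGGAAAaaagggcagtg
Ppat, chr5:76951718-76951747, minus strand: aggatcagaggGCGGGAAAgggaggtgcaa

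The E-box of Atic began 7 bases before the start, and that of Nme1 18 bases before it. A further E-box of Nme1 stood before a second start of that gene. Nt5c2 and Slc29a1 have several annotated starts, and each had its E-box at only 1 of them. The E2F matches of Ppat, at 211 and 158 bases before its start, are reverse complements of TTTCCCGC, and the other E2F match was that of Prps2, after its start. Paics and Ppat lie head to head on chromosome 5, and both fell in MR13. The transcript of Myc itself was at 11.45, 11.42 and 11.42 in MR13 and at 12.28, 12.26 and 12.26 in WTR-, a fall of 0.84 (SE 0.05, adjusted p = 1.76e-06). Of 9 measured genes of the MYC and MAX family, 3 rose and Myc alone fell. The 44.4% called compare with 37.6% of all genes tested and 62.2% of those above the median level, below which Mycn lay. Mxd3 (0.59) and Mxd4 (0.27), MAX partners that oppose MYC, rose the most.

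In pyrimidine synthesis, both enzymes that follow Cad on the way to UMP fell. Dhodh, the mitochondrial dihydroorotate dehydrogenase that links the pathway to the respiratory chain, was at 7.44, 7.54 and 7.62 in MR13 and at 8.32, 8.39 and 8.33 in WTR-. The 3 MR13 arrays all lay well below the 3 WTR- arrays, and Dhodh was 1.76-fold lower (difference -0.81, SE 0.06, adjusted p = 9.35e-06). Umps, which makes UMP from orotate, fell by 0.38 (SE 0.05, adjusted p = 4.10e-04). Cad, the enzyme of the first 3 steps, stood at 9.66 ± 0.08 in MR13 and 9.78 ± 0.07 in WTR- (SD, n = 3 each) with overlapping groups, and no difference was called (-0.12, 95% confidence interval -0.27 to 0.02). The CTP synthases differed from each other. Ctps2 was at 10.27, 10.32 and 10.37 in MR13 and at 9.89, 9.86 and 9.91 in WTR-. It rose 1.35-fold (0.44, SE 0.05, adjusted p = 1.57e-04), whereas Ctps differed by -0.07 (95% confidence interval -0.19 to 0.05).

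Over all 18 genes of de novo synthesis, 9 fell and 3 rose, and the median difference was -0.15. The shares of 50.0% lower and 16.7% higher compare with 20.6% and 17.0% of all genes tested, and with 35.0% and 27.3% of the genes above the median level.

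**Figure D2:**
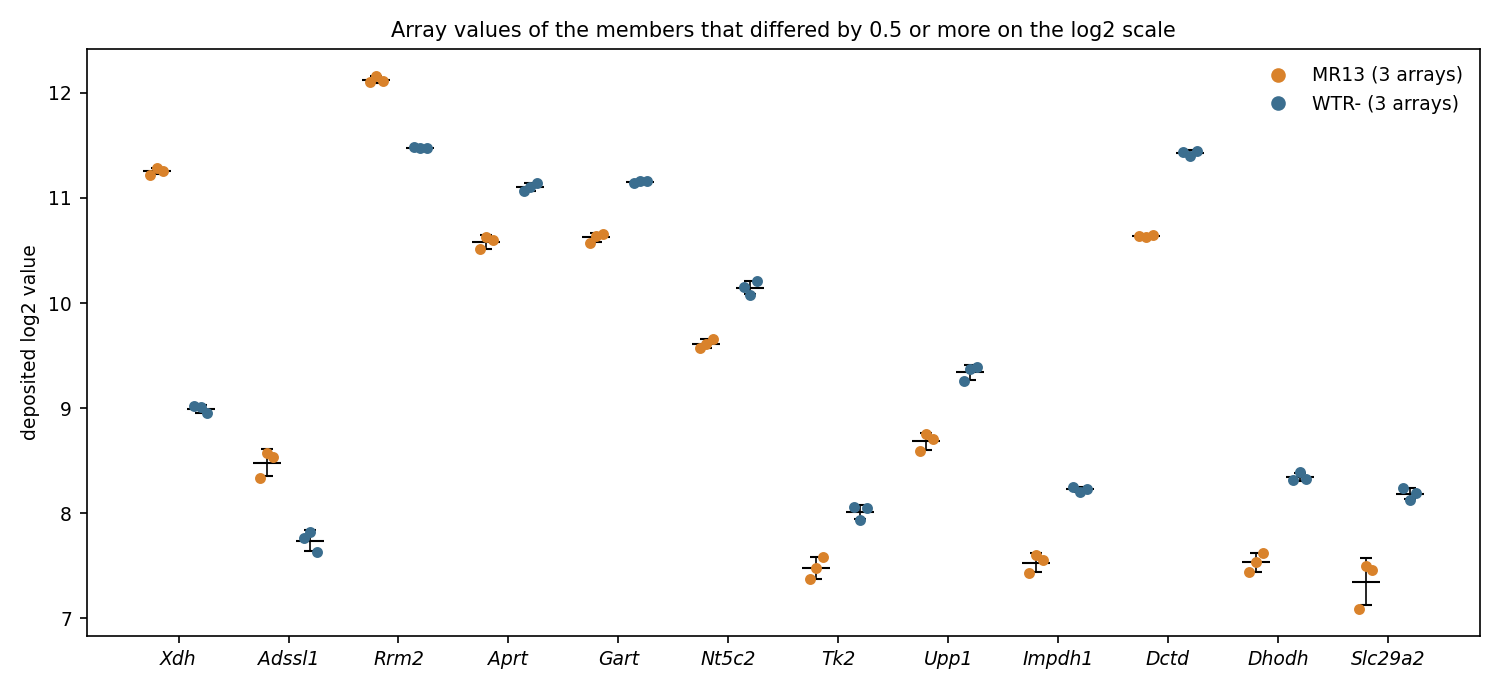
Deposited log2 values (y axis) of the 12 called genes that differed by at least 0.5 (x axis, in order of the difference). Points are arrays, short lines are means and bars are SDs (n = 3 each). In all 12 genes the 3 MR13 values lie outside the WTR- range, above it for Xdh, Adssl1 and Rrm2 and below it for the rest.

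Salvage and breakdown changed in both directions, with 6 of 14 genes higher, 6 lower and 2 not called. The 85.7% called compare with 37.6% of all genes and 62.2% of those above the median level. The median difference was -0.07, and it ranged from -0.11 (without MR13 replicate 3) to -0.03 (without WTR- replicate 3) and was -0.23 with the dimmest probe set of each gene. Xdh, the xanthine dehydrogenase that oxidises hypoxanthine and xanthine to uric acid at the end of purine breakdown, changed the most of all 45 genes. It was at 11.22, 11.28 and 11.26 in MR13 and at 9.02, 9.01 and 8.95 in WTR-. The groups lay more than 2 log2 units apart, and Xdh rose 4.79-fold (2.26, SE 0.05, adjusted p = 8.58e-09). Ada, which deaminates adenosine to inosine, rose by 0.48 (SE 0.07, adjusted p = 8.27e-04) and spread more widely in MR13 (8.87 ± 0.15) than in WTR- (8.39 ± 0.02, SD, n = 3 each). Gda, guanine deaminase, was called higher (0.23, adjusted p = 0.0214), but it was dim. Its means of 4.15 in MR13 and 3.92 in WTR- were close to the 10th percentile of the arrays (3.76 to 3.80), and its call was lost without WTR- replicate 1 (adjusted p = 0.063), WTR- replicate 3 (0.0624) or MR13 replicate 1 (0.0538). Pnp, the purine nucleoside phosphorylase between Ada and Xdh, showed no called difference (-0.02, 95% confidence interval -0.16 to 0.12).

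Enzymes of the list that return purines to nucleotides fell or did not pass. Aprt, which salvages adenine, was at 10.51, 10.63 and 10.60 in MR13 and at 11.07, 11.10 and 11.14 in WTR-. It was 1.43-fold lower without overlap (-0.52, SE 0.06, adjusted p = 7.91e-05). Adk, adenosine kinase, fell by 0.48 (SE 0.06, adjusted p = 1.80e-04). Hprt, which salvages hypoxanthine and guanine, stood at 10.60 ± 0.04 in MR13 and 10.72 ± 0.09 in WTR- (SD, n = 3 each) and was not called (-0.12, 95% confidence interval -0.26 to 0.02). Both nucleotidases of the list fell. Nt5c2, the cytosolic enzyme that prefers IMP and GMP, was at 9.57, 9.61 and 9.66 in MR13 and at 10.15, 10.08 and 10.21 in WTR- (-0.54, SE 0.06, adjusted p = 7.67e-05). Nt5e, the surface enzyme CD73 that makes adenosine from AMP outside the cell, was 1.27-fold lower (11.56 ± 0.06 in MR13, 11.91 ± 0.02 in WTR-, adjusted p = 8.08e-04).

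Among pyrimidine salvage genes, Upp1, the uridine phosphorylase that splits uridine, was at 8.59, 8.75 and 8.71 in MR13 and at 9.26, 9.37 and 9.39 in WTR-. It fell without overlap by 0.66 (SE 0.06, adjusted p = 5.04e-05). The uridine-cytidine kinase Uck1 rose by 0.32 (SE 0.07, adjusted p = 0.00398). Uck2, the other such kinase, was called higher (0.20, adjusted p = 0.0128) from its brighter probe set, but its dimmer probe set was lower in MR13 (9.64, 10.12 and 9.63, against 10.40, 10.20 and 10.20 in WTR-), so the direction for Uck2 depended on the probe set. The equilibrative nucleoside transporters moved apart. Slc29a1 (ENT1) stood at 10.80 ± 0.11 in MR13 and 10.40 ± 0.02 in WTR- (SD, n = 3 each) and rose 1.31-fold (0.39, SE 0.06, adjusted p = 0.00109). Slc29a2 (ENT2) was at 7.09, 7.50 and 7.46 in MR13 and at 8.24, 8.13 and 8.19 in WTR-. MR13 replicate 1 was the lowest, and even the highest MR13 value was below every WTR- value. Slc29a2 was 1.79-fold lower (-0.84, SE 0.10, adjusted p = 1.83e-04), the largest fall of the 45 genes.

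The supply of dNTPs was split between enzymes. Of 13 genes, 3 rose, 5 fell and 5 were not called, with a median difference of -0.13. The 61.5% called (23.1% higher, 38.5% lower) were close to the 62.2% of all genes above the median level (27.3% higher, 35.0% lower). Rrm2, the small subunit of ribonucleotide reductase that is made in S phase, was at 12.10, 12.16 and 12.11 in MR13 and at 11.48, 11.47 and 11.47 in WTR-. The groups were tight and far apart, and Rrm2 rose 1.57-fold (0.65, SE 0.05, adjusted p = 1.04e-05). Rrm1, the large subunit, was 0.08 higher (95% confidence interval -0.03 to 0.19) and was not called, although its groups did not overlap. Rrm2b, the alternative small subunit and a p53 target, stood at 7.64 ± 0.09 in MR13 and 7.85 ± 0.21 in WTR- (SD, n = 3 each) and was not called either (-0.21, 95% confidence interval -0.44 to 0.02).

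On the route through dUMP to thymidylate, Tyms and Dut rose and Dctd fell. Tyms, thymidylate synthase and an indirect target of MTX, stood at 11.41 ± 0.04 in MR13 and 11.12 ± 0.09 in WTR- (SD, n = 3 each) and rose 1.22-fold (0.28, SE 0.06, adjusted p = 0.00494). Dut, which makes the Tyms substrate dUMP from dUTP, rose by 0.43 (SE 0.05, adjusted p = 1.63e-04). Dctd, which makes dUMP from dCMP, was at 10.64, 10.63 and 10.65 in MR13 and at 11.44, 11.40 and 11.45 in WTR-. It was 1.73-fold lower (-0.79, SE 0.05, adjusted p = 2.71e-06), with a spread of at most 0.05 within each group. Dtymk, the kinase that follows Tyms, differed by -0.13 (95% confidence interval -0.28 to 0.01) and was not called.

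The deoxynucleoside kinases of the list were lower or not called. Outside the list, Dguok, deoxyguanosine kinase, was higher in MR13 (0.31, SE 0.06, adjusted p = 0.00347 by limma). The cytosolic thymidine kinase Tk1 fell by 0.29 (SE 0.05, adjusted p = 0.002). The mitochondrial Tk2 was at 7.38, 7.48 and 7.58 in MR13 and at 8.06, 7.94 and 8.05 in WTR-, and it was 1.45-fold lower (-0.54, SE 0.07, adjusted p = 2.06e-04). Dck, deoxycytidine kinase, differed by -0.07 (95% confidence interval -0.20 to 0.06). Of the kinases that finish the triphosphates, Nme2 fell by 0.47 (SE 0.06, adjusted p = 2.53e-04) and Nme1 by 0.21 (SE 0.06, adjusted p = 0.0175). Nme1 lost its call without WTR- replicate 2 (adjusted p = 0.051) or 3 (0.0567). These neighbouring genes are very alike in sequence, so their probes can share signal and the values are uncertain. Cmpk1, the UMP-CMP kinase, differed by 0.08 (95% confidence interval -0.04 to 0.19).

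**Figure D3:**
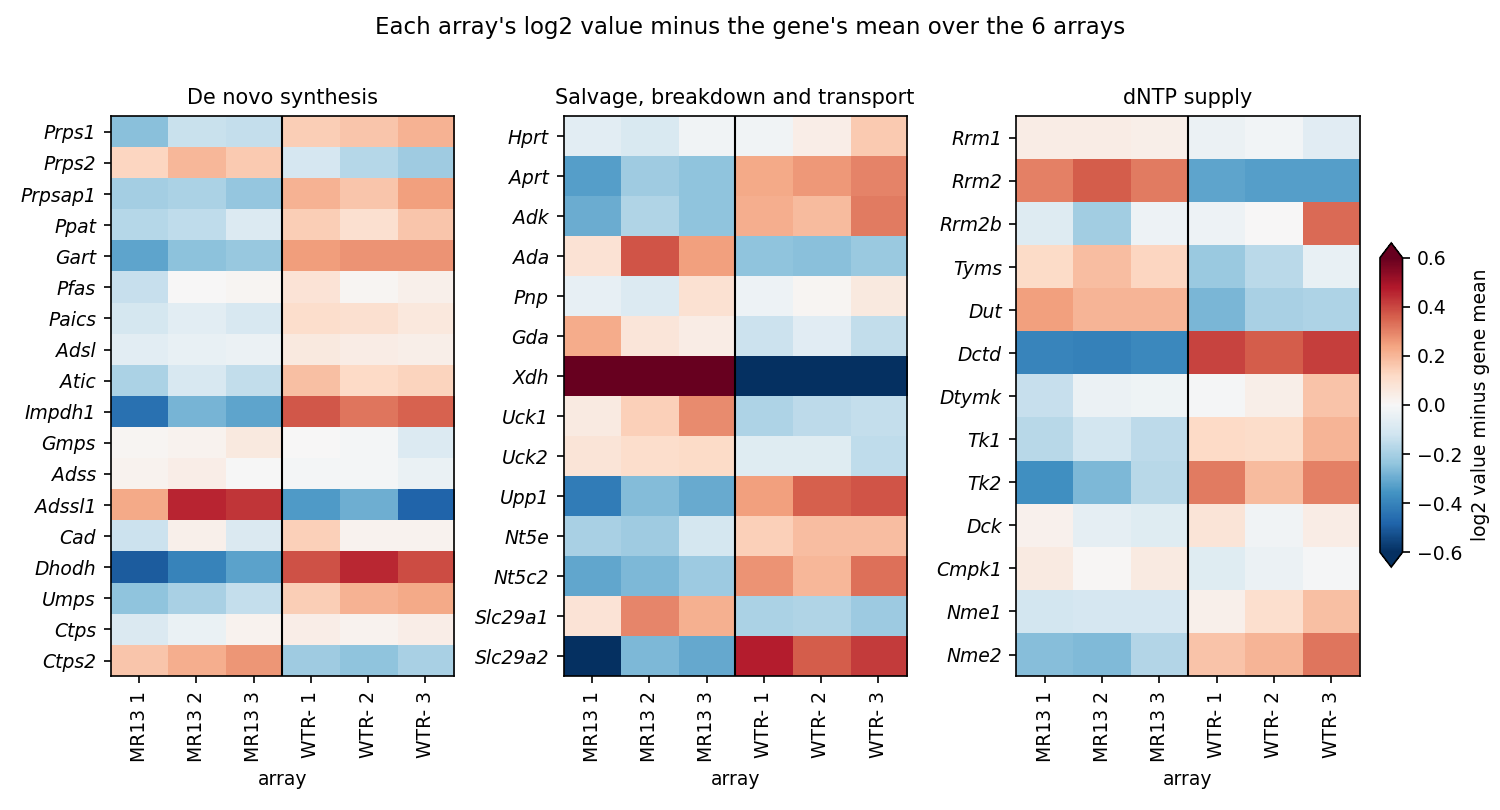
Each array's log2 value minus the gene's mean over the 6 arrays (colour, red higher and blue lower, cut at 0.6 in size), for the 45 genes (rows) on 3 MR13 and 3 WTR- arrays (columns). The colours change at the line between the groups for most genes. Xdh on all arrays and Slc29a2 on MR13 replicate 1 (7.09) run off the scale, and Rrm2b is high on WTR- replicate 3 (8.09) alone.

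The groups did not overlap for 16 genes that were higher and 22 that were lower in MR13, of 45. Over all genes tested the groups did not overlap for 47.4% (22.2% higher, 25.2% lower). Of the 13 genes that were not called, Gmps, Adss, Rrm1 and Cmpk1 lay above and Adsl and Dtymk below the WTR- range on all 3 MR13 arrays, with differences of at most 0.13 in size.

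For 8 pairs of related genes the log2 ratio was formed within each array, and its change is free of any shift common to an array. The ratio of Slc29a1 to Slc29a2 changed the most (1.23, SE 0.08), followed by Rrm2 to Rrm2b (0.86, SE 0.14), Adss to Adssl1 (-0.71, SE 0.09), Prps1 to Prps2 (-0.67, SE 0.05) and Ctps to Ctps2 (-0.51, SE 0.01). Smaller changes were found for Nme1 to Nme2 (0.26, SE 0.03) and Tk1 to Tk2 (0.25, SE 0.07). The ratios of these 7 pairs did not overlap between the groups. Of all single genes 47.4% did not overlap, which is not a like background, since a ratio shifts when either gene changes. The ratios of Uck1 to Uck2 did overlap (0.12, SE 0.07). Their change was 0.46 with probe sets averaged and 0.79 with the dimmest probe set, and all 8 pairs then stood apart. With 3 arrays against 3, a two-sided exact permutation test cannot go below p = 0.10. By this exact permutation test the 7 pairs reached that value (adjusted p = 0.114 over 8 pairs), so none passed 0.05, and the pair of Uck genes had p = 0.20.

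**Figure D4:**
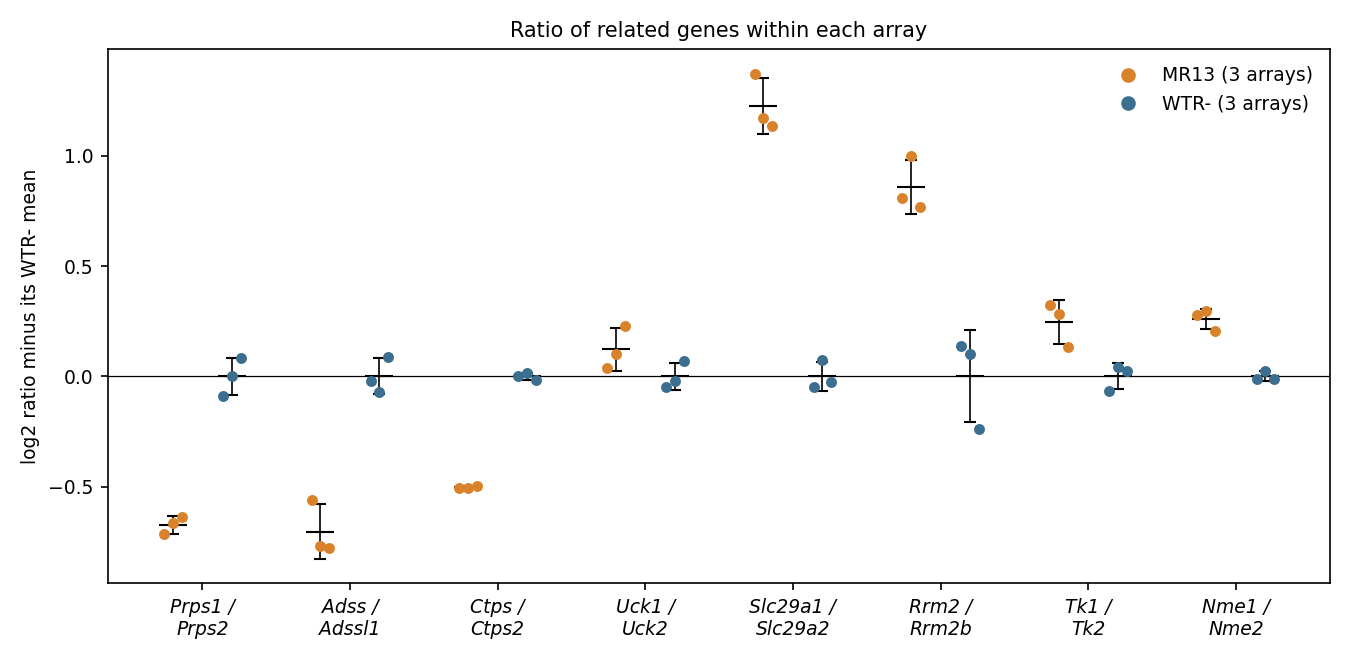
Log2 ratio of 2 related genes within each array, minus its mean over the WTR- arrays (y axis), for 8 pairs (x axis). Points are arrays, short lines are means and bars are SDs (n = 3 each). The MR13 points of Slc29a1 over Slc29a2 lie highest, around 1.23, and those of Adss over Adssl1 lowest, around -0.71.

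Further genes of nucleotide metabolism, a list of 66 of which 57 were measured, were also mixed. In it 13 rose, 21 fell and 23 were not called, with a median difference of -0.02. The 59.6% called compare with 37.6% of all genes tested and 62.2% of those above the median level. Many of the 57 genes lay below that level, such as Upp2 and Slc28a2, so the 62.2% is not a like background for this list. Ak1, the cytosolic adenylate kinase, was at 9.47, 9.66 and 9.52 in MR13 and at 7.18, 7.18 and 7.07 in WTR-, and rose 5.30-fold (2.40, SE 0.07, adjusted p = 2.55e-08). Adal (0.93), a deaminase related to Ada, Cmpk2 (0.72), the mitochondrial UMP-CMP kinase, Ampd3 (0.50), an AMP deaminase, Ak4 (0.45), a mitochondrial adenylate kinase, and Enpp4 (0.41), an ectoenzyme, rose next. Entpd3, which splits nucleotides outside the cell, was at 7.04, 6.93 and 7.06 in MR13 and at 9.41, 9.57 and 9.45 in WTR-, and was 5.51-fold lower (-2.46, SE 0.06, adjusted p = 1.67e-08). Nme4, the mitochondrial nucleoside diphosphate kinase, and the pyrimidine nucleotidase Nt5c3 both differed by -1.18. Slc25a33, a mitochondrial pyrimidine nucleotide carrier, differed by -1.07, guanylate kinase Guk1 by -1.01 and the mitochondrial Ak3 by -0.95.

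Genes of DNA replication outside the list, which share S phase expression with several dNTP genes, were set beside them. Of 34 measured, 12 rose and 7 fell, with a median difference of -0.02. The 55.9% called compare with 37.6% of all genes tested and 62.2% of those above the median level. The log2 of their summed signal was 15.61 to 15.66 in MR13 and 15.61 to 15.63 in WTR-. Cdc6 (0.56) and E2f1 (0.48) rose the most, and Prim1 (-0.69) and Cdt1 (-0.47) fell the most. Of 13 E2F and RB family genes, 4 rose and 4 fell, a share called of 61.5% that was close to the 62.2%. Rb1 (0.88) and E2f1 rose the most, and E2f6 (-0.80) and E2f4 (-0.55), 2 E2F factors known mainly as repressors, fell the most. The part of these genes in the changes of Rrm2, Tyms, Dut and Tk1 was not tested.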

How the data were processed

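The deposited table held log2 expression values of 28350 transcript-level probe sets on 6 arrays, as processed by the authors, with near-equal array medians (6.57 to 6.62) and a range of 2.42 to 14.39. The submitters' processing notes named affy and limma. Their versions, the background correction and the normalization method are not given in the sources used here. Precision is limited by the number of arrays.

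GEO's platform annotation paired 21780 probe sets with 1 symbol, 1618 with several and 4952 were unnamed here. Each of 19933 genes took its single-symbol probe set with the highest mean. All 45 members matched the RefSeq table (GRCm38.p6) by Entrez identifier. MR13 was compared with WTR- by limma 3.58.1 (R 4.3.3), without covariates, with Benjamini-Hochberg adjustment over all genes and a call at 0.05. SE and confidence intervals of single genes are limma's, ± is SD, and differences are MR13 minus WTR-. The SE of a ratio of related genes was taken from the variances of the ratio within both groups, without limma. Members, lists and tests were chosen with earlier results of these data known. Array values were given for called members without overlap that differed by 0.5 or more, and for the 2 largest called differences of each list. The 6 largest called differences in each direction were named for further nucleotide genes, and 2 for the S phase, MYC and E2F lists. The median level, above which shares are also given, and other genes were chosen or named after their values were seen. The plan was to print promoters of the genes that changed most. Of these, Xdh and Dhodh had no window and the others held no match, and stretches with a match were printed instead. On simulated data of 19933 genes, far fewer genes were changed than the 37.6% called here. There, 44.0% of genes changed 1.25-fold and 82.0% of those changed 1.5-fold were recovered, with 2.98% false calls. Recovery in the real data can differ, since the adjustment depends on how many genes change.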

Additional observations from a re-analysis of the deposited data

How the results depend on the processing

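All 32 called genes kept their direction after quantile normalization, which called 31 of the 45 genes, and after median centring, which called 32. Median centring called 7426 of all genes. The median of all genes moved by no more than 0.02 under any alternative. Quantile normalization moved the median of all members and that of de novo synthesis to -0.09, and over all genes it turned the balance of calls, with 50.7% of 7776 calls higher in MR13 against 45.2% of 7497 as reported. The median of salvage and breakdown was -0.12 without the dimmest 30% of genes, which dropped Gda, -0.13 with probe sets of a gene averaged and -0.23 with the dimmest probe set. Uck2 turned to -0.14 (adjusted p = 0.23) and -0.47 (adjusted p = 0.0183) under the last pair of settings. The call rule mattered most. With a 1.5-fold minimum, 2193 genes were called, and 3 members rose and 5 fell (de novo 1 and 2, salvage and breakdown 1 and 2, dNTP supply 1 and 1). Leaving out 1 array at a time, the medians ranged from -0.16 to -0.09 for all members and from -0.18 to -0.13 for de novo synthesis. They ranged from -0.11 to -0.03 for salvage and breakdown and from -0.17 to -0.08 for dNTP supply. In these fits 11 to 12 members rose and 18 to 20 fell, and 6716 to 6971 of all genes were called. A plain t-test with Benjamini-Hochberg adjustment called 33 members, among them Adsl and Rrm1, and 6524 of all 19933 genes. Arrays with the same replicate number correlated in their deviations at 0.13, 0.00 and 0.18, and MR13 replicate 2 did not correlate best with its own number. With the replicate block 7442 genes and 32 members were called. The cause of these shifts was not tested. Signal near background limits Gda.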

Other observations

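Some members had further probe sets that did not enter the main comparison. Those of Tk1 and Uck2 entered only the settings with probe sets averaged or with the dimmest probe set. A second probe set of Tk1 averaged 10.81 in MR13 and 11.13 in WTR- (difference -0.31), close to the -0.29 of the one used. A probe set annotated to both Nme2 and Dscaml1 averaged 11.68 in MR13 and 12.31 in WTR- (-0.63), and one annotated to both Pnp2 and Pnp averaged 10.37 in MR13 and 10.48 in WTR- (-0.12). The dimmer probe set of Uck2 averaged 9.80 in MR13 and 10.27 in WTR- (-0.47), and MR13 replicate 2 (10.12) stood apart from the other MR13 arrays (9.64 and 9.63).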
